A study of Mus musculus with 16 samples.

Results

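Heat shock proteins and their partners were examined in brain RNA of aged mice. The group holds 10 genes, Hspa1a, Hspa1b, Hspa5, Hspa8, Hsph1, Hsp90aa1, Hsp90ab1, Dnajb1, Hspb1 and Bag3, which were chosen by name from the 40481 genes listed in the count file, and all 10 were among the 14949 genes tested. Brain tissue came from 16 male C57BL/6J mice (strain C57BL in the labels) obtained at 18 months of age, which received an intraperitoneal injection each day. In 8 mice this was adropin(34-76), the putative secreted part of the brain-expressed peptide adropin, at 90 nmol/kg/d in saline with albumin, and in the other 8 it was the saline diluent alone. All mice went through behavioural testing during treatment and were fasted for 6 h before collection, in both groups alike. The brain region taken is not given in the sources used here, and RNA was selected by its poly-A tail. Each mouse is called by its label, such as 8_3.

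Chaperones bind unfolded or partly folded proteins and help them to fold, refold or be degraded. HSP70 proteins hold short exposed stretches of a client in cycles of ATP hydrolysis that HSP40 proteins start and exchange factors end, and they pass many clients on to HSP90. After heat or other protein damage, heat shock factor 1 binds repeated elements in the promoters of the inducible genes and raises their transcription, whereas damage inside the endoplasmic reticulum raises a separate set through the unfolded protein response. Neurons depend on this system because they do not divide, and its capacity is widely studied in the ageing brain and in diseases of protein aggregation.

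The total count ranged from 35026503 to 70314050 per mouse. The markers fixed for neurons, astrocytes, oligodendrocytes, microglia and endothelium were all detected, and none was at 0 in every mouse. Between mice the RNA levels of cell type markers differed. The summed level of 5 oligodendrocyte markers was between 2581 and 7654 CPM (counts scaled to a common library total). That of the choroid plexus markers was between 11.4 and 75.9 CPM in adropin-treated mice and between 14.3 and 2474 CPM in saline-treated mice. All 5 oligodendrocyte markers had lower estimates with adropin (median log2 fold change -0.20), none at an unadjusted p below 0.05. All 5 of the choroid plexus markers tested were lower with adropin at an unadjusted p below 0.05, and saline-treated mouse 8_3 held the highest sum. In bulk tissue, fewer cells of a type cannot be told apart from less RNA per cell. The first principal component of all genes held 34.1% of the variance and did not separate the groups (exact 2-sided permutation, p = 0.268).

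The promoters of these genes differed in the matches to stress elements found in them. Of the 10, 7 had an entry in the RefSeq promoter table of build GRCm38.p6, and the 250 bases before each start were searched on both strands for the core of the heat shock element, GAANNTTC or its other phase TTCNNGAA, which are each their own reverse complement, and overlapping matches were all counted. One of these cores stood before 12.8% of the 32851 annotated starts, and 1.46% had 2 or more. Hspa1a and Hspa1b had the core at -104 from the start, Hspb1 had it at -117 and again at -97, and Hsph1 had it at -33 from one annotated start and -54 from the other. No such letters occurred in this window of Hspa5, Dnajb1 or Bag3. Hspa5 instead carried at -65 the endoplasmic reticulum stress element, written as CCAAT, 9 bases and CCACG, which was found before 0.113% of all starts. The starts are those of RefSeq, and exons of the GENCODE models of Hspa5 and Hsph1, which begin farther upstream, overlap the stretches printed for these genes. A match describes letters in a window and does not show binding. The lack of a match does not show that an element is absent, since only these exact letters within 250 bases were searched. The stretches that hold a match are given 5′ to 3′ on the strand of the gene in lower case, with the matched letters in capitals, from chr17:34972157-34972306 (minus strand) for Hspa1a, chr17:34959239-34959388 (minus strand) for Hspa1b, chr5:135887769-135887918 (plus strand) for Hspb1, chr5:149636351-149636380 (minus strand) for Hsph1 and chr2:34772020-34772049 (plus strand) for Hspa5.
Hspa1a: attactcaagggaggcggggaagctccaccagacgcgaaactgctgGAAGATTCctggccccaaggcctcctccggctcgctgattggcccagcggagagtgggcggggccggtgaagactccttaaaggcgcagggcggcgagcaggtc
Hspa1b: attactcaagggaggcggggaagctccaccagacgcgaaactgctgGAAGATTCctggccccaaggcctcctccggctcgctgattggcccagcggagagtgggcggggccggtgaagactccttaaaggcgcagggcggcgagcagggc
Hspb1: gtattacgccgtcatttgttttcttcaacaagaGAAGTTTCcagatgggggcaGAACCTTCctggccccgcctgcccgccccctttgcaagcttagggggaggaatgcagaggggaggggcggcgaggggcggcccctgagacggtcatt
Hsph1: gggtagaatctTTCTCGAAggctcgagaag
Hspa5: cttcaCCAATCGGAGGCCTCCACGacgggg
The Hspa1a and Hspa1b stretches are both shown because they are nearly the same sequence. Of the 150 bases before the start, 149 were identical between the pair, and 247 of the 250 bases searched were.

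Levels were ranked between genes per kilobase of annotated exon, as CPM divided by the length of all exons of the gene (CPM per kb). Ratios of counts between 2 genes, given further on, are not corrected for length and serve to compare mice. The constitutive genes Hsp90ab1 and Hspa8 had the highest mean levels. Hsp90ab1, the constitutive cytosolic HSP90 (chromosome 17, 45567775 to 45573271 of GRCm38, minus strand), stood first with a mean of 513 CPM per kb, and Hspa8, the constitutive cytosolic HSP70 that also uncoats clathrin vesicles (chromosome 9, 40800984 to 40810087, plus strand), second with 324 CPM per kb. Hsp90aa1, the inducible HSP90 (chromosome 12, 110690605 to 110702728, minus strand), followed with 225 CPM per kb. Over mice its range, from 174 to 332 CPM per kb, overlapped that of Hspa8, from 283 to 367, whereas Hsp90ab1 at 454 to 548 stood clear of both. Hspa5, the HSP70 of the endoplasmic reticulum also called BiP (chromosome 2, 34771970 to 34777547, plus strand), had 44.4 CPM per kb. Hsph1, an HSP110 exchange factor (chromosome 5, 149614287 to 149636376, minus strand), had 30.9 CPM per kb, and Dnajb1, the inducible HSP40 (chromosome 8, 83608193 to 83612653, plus strand), had 20.4 CPM per kb.

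The remaining 4 genes had the lowest levels per length. Hspb1, the small heat shock protein HSP27 that holds unfolded clients without ATP (chromosome 5, 135887919 to 135889563, plus strand), had 7.15 CPM per kb. Hspa1b had 6.26 CPM per kb and Hspa1a 3.80 CPM per kb, both encoding the inducible HSP70 (chromosome 17, minus strand, 34956436 to 34959238 and 34969190 to 34972156). Bag3, an exchange factor that links HSP70 to small heat shock proteins and to autophagy (chromosome 7, 128523616 to 128546981, plus strand), had 4.66 CPM per kb. Over the 16 mice the ranges of these 4 genes overlapped from each to the next in the order, whereas the ranges of Hspa5, Hsph1 and Dnajb1 did not overlap.

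The levels of Hspa1a and Hspa1b are uncertain because their sequences are nearly the same. Each is a single exon, and the longest open reading frames of their annotated transcripts matched at 99.6% of 1926 aligned bases, against 75.8% between Hspa1a and Hspa8. Of all stretches of 100 bases in the Hspa1a transcript, 47.1% also occurred without a mismatch in that of Hspa1b. The authors counted reads that aligned uniquely and unambiguously, and a read pair from a shared stretch would not be counted for either gene. The ratio of Hspa1a to Hspa1b counts ranged from 0.480 in saline-treated mouse 5_4 to 0.832 in adropin-treated mouse 7_4, and the group difference was -0.05 on the log2 scale (exact 2-sided permutation, p = 0.688). Hspa1a is also overlapped on the opposite strand by the gene model Gm20481, Bag3 on its own strand by the gene model 2610306O10Rik, and Hspa8 by small nucleolar RNA genes on its own strand. Whether counting used strand is not given in the sources used here.

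The first question was whether daily adropin changed the expression of these genes in the aged brain. No difference between the groups was detected for any of the 10. With adropin 5 were higher and 5 lower, none reached an unadjusted p below 0.05 (edgeR quasi-likelihood test), and the smallest Benjamini-Hochberg adjusted p was 0.874. Over all genes tested 1.86% were higher and 2.13% lower at an unadjusted p below 0.05, 0.421% also passed a fold change of 1.5, and 0% had an adjusted p below 0.05. DESeq2 called 5 of all genes tested at an adjusted p below 0.05 but none of these 10, also at an unadjusted p below 0.05. The median log2 fold change of the 10 was -0.0065 against -0.0019 over all genes, and their median absolute log2 fold change was 0.040 against 0.074.

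**Figure D1:**
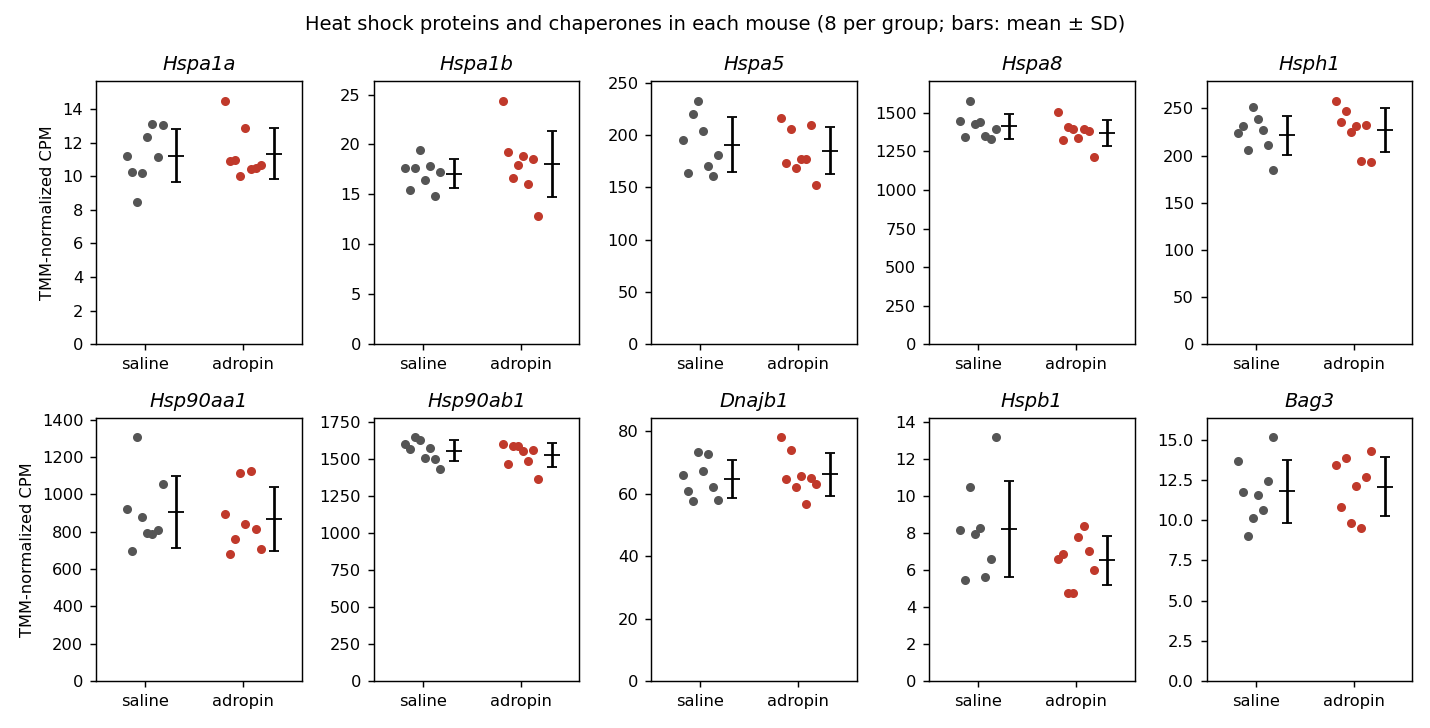
Level of each of the 10 genes in every mouse, as TMM-normalized CPM on a linear axis that starts at 0. Each point is 1 mouse, grey for saline and red for adropin, with 8 mice per group, and the bar beside each set is the mean ± SD. The groups overlapped for every gene, and the widest spread relative to the mean was that of Hspb1, from 4.75 to 13.2 CPM.

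Among the constitutive genes the groups overlapped for most mice. In adropin-treated mice Hspa8 ranged from 1216 to 1507 CPM with a median of 1387, and in saline-treated mice from 1328 to 1580 CPM with a median of 1411. Its log2 fold change was -0.05 ± 0.05 (SE), with a 95% interval from -0.15 to 0.06. Adropin-treated mice 7_4 and 2_1 lay below the saline range of Hspa8 and saline-treated mouse 5_4 above the adropin range. Hsp90ab1 ranged from 1362 to 1597 CPM with a median of 1554 in adropin-treated mice and from 1428 to 1644 CPM with a median of 1569 in saline-treated mice. Its log2 fold change was -0.03 ± 0.05, with an interval from -0.13 to 0.07. The lowest mouse of both genes was 7_4 and the highest 5_4, 1 from each group. These were also the steadiest of the 10, with coefficients of variation over 16 mice of 5.93% for Hspa8 and 4.94% for Hsp90ab1, where 5.72% and 2.17% of all genes tested varied less.

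The inducible cytosolic genes showed the same overlap at wider spreads. Hsp90aa1 ranged from 682 to 1122 CPM (median 827) with adropin and from 697 to 1305 CPM (median 844) with saline, a log2 fold change of -0.06 ± 0.13 and an interval from -0.33 to 0.21. When the first number of the labels was a block, this estimate was -0.28 (unadjusted p = 0.159). Its highest mice were 5_4, 4_3, 3_3 and 8_3, of which 2 had received adropin and 2 saline. Hspa1b ranged from 12.8 to 24.4 CPM (median 18.3) with adropin and from 14.9 to 19.5 CPM (median 17.4) with saline, a log2 fold change of 0.08 ± 0.10 and an interval from -0.12 to 0.29. Both the highest and the lowest mouse for Hspa1b, 1_3 and 7_4, were adropin-treated, and the estimate was 0.01 without the first and 0.14 without the second. Hspa1a ranged from 10.00 to 14.5 CPM (median 10.8) with adropin and from 8.48 to 13.1 CPM (median 11.2) with saline, a log2 fold change of 0.02 ± 0.10 and an interval from -0.19 to 0.22. The ratio of the summed inducible HSP70 counts to those of Hspa8 was 0.09 higher on the log2 scale with adropin, within the spread between mice (exact 2-sided permutation, p = 0.253). It was 0.05 without mouse 1_3 or mouse 5_4, and 0.03 within the first label numbers that both groups share.

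The partners of HSP70 did not differ detectably either. Hsph1 ranged from 193 to 258 CPM (median 232) with adropin and from 185 to 251 CPM (median 225) with saline, a log2 fold change of 0.03 ± 0.07 and an interval from -0.12 to 0.18. Dnajb1 ranged from 56.8 to 78.1 CPM (median 64.9) with adropin and from 57.6 to 73.4 CPM (median 64.0) with saline, a log2 fold change of 0.03 ± 0.07 and an interval from -0.11 to 0.18. For both genes the highest mouse was 1_3 with adropin and 6_1 with saline. Bag3 ranged from 9.55 to 14.3 CPM (median 12.4) with adropin and from 9.03 to 15.2 CPM (median 11.6) with saline, a log2 fold change of 0.03 ± 0.11 and an interval from -0.20 to 0.26. Hspa5, in the endoplasmic reticulum, ranged from 152 to 216 CPM (median 177) with adropin and from 161 to 233 CPM (median 188) with saline, a log2 fold change of -0.05 ± 0.09 and an interval from -0.23 to 0.14.

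**Figure D2:**
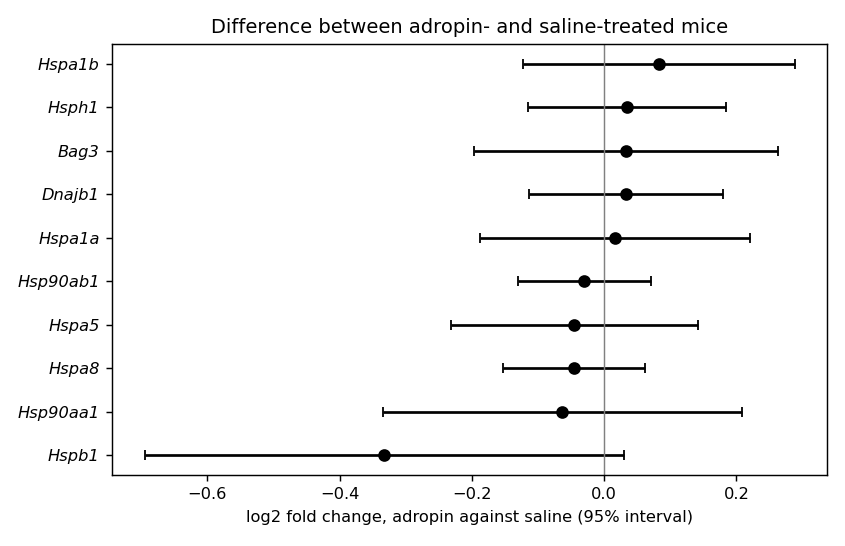
Log2 fold change of each gene, adropin against saline, with its 95% interval from the edgeR fit (8 mice per group) and a line at 0. All 10 intervals include 0, and the one farthest from it is that of Hspb1, at -0.33 with bounds of -0.69 and 0.03.

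Hspb1 had the largest difference of the 10, and it did not pass the test. It ranged from 4.75 to 8.42 CPM (median 6.73) in adropin-treated mice, with a mean of 6.53 ± 1.32 (SD, n = 8), and from 5.44 to 13.2 CPM (median 8.05) in saline-treated mice, with a mean of 8.22 ± 2.60 (SD, n = 8). Mice 8_3 and 5_4, both saline-treated, stood above every adropin-treated mouse, and the other 6 saline-treated mice lay within the adropin range. The log2 fold change was -0.33 ± 0.17, with an interval from -0.69 to 0.03, an unadjusted p of 0.0695 and an adjusted p of 0.874 (edgeR). The exact two-sided permutation test of its log2 level gave p = 0.133. Its coefficient of variation was 29.5%, and 92.2% of all genes tested varied less. Without mouse 4_3, 5_3 or 7_1 the log2 fold change became -0.38, -0.39 and -0.40 with unadjusted p of 0.0426, 0.0318 and 0.0321, and without 8_3 it was -0.20 (unadjusted p = 0.202). It was also smaller with voom quality weights (-0.12), with the first principal component (-0.15) or Gm42418 (-0.22) as a covariate, and when the first number of the labels was a block (-0.22), at unadjusted p from 0.214 to 0.406. Mouse 8_3 was also the highest for the choroid plexus markers, of which 5 of 5 tested were lower with adropin. Over 16 mice with group means subtracted, Hspb1 and Ttr, a choroid plexus marker, had an r of 0.62 (permutation p = 0.0237, adjusted p = 0.190 over 40 relations) and a rho of 0.49 (permutation p = 0.0759). With mice 5_4 and 8_3 left out r fell to 0.01. The part of choroid plexus content in the Hspb1 values was not tested.

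The wider chaperone network was then read from 138 further genes in lists chosen by family, of which 132 were tested. In these lists 84 genes had a lower and 48 a higher estimate with adropin, where 50.8% of all genes tested were lower, and with library size in place of TMM scaling, which moved the median of all genes to -0.024, the division was 97 to 35. Only 4 passed an unadjusted p below 0.05, all 4 of them lower, which is 3.03% against the 2.13% of all genes, and none passed after adjustment over all genes. Dnajb5, an HSP40 of the same subfamily as Dnajb1, had 125 ± 9.90 CPM with adropin and 148 ± 21.8 CPM with saline (SD), a log2 fold change of -0.24 ± 0.08. P4ha1, a collagen prolyl hydroxylase subunit, changed by -0.15 ± 0.06, Grpel2, an exchange factor of mitochondrial HSP70, by -0.14 ± 0.06, and Pfdn4, a prefoldin subunit that delivers unfolded actin and tubulin, by -0.21 ± 0.10. All 4 had an adjusted p of 0.874 (edgeR), and they belong to different families.

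By family, no list held more than 1 gene at an unadjusted p below 0.05. The 7 other HSP70 and HSP110 genes tested all had higher estimates with adropin (6 of 7 with library size only). Their median log2 fold change was 0.09, and none had an unadjusted p below 0.05. The largest estimate was that of Hspa1l, a testis-enriched HSP70 next to Hspa1a, at 0.30 ± 0.15. Hspa1l lay near the filter of 1 CPM, with means of 1.90 CPM with adropin and 1.55 CPM with saline. Of the HSP40 genes 10 of 21 had lower estimates (14 with library size only), and of the small heat shock proteins 4 of 5. The BAG and other exchange factors were lower in 6 of 9 (7 with library size only). The HSP90 co-chaperones were lower in 11 of 13 (12 with library size only). The cytosolic chaperonin TRiC and prefoldin were lower in 12 of 14 genes (13 with library size only). Mitochondrial chaperones were evenly divided at 6 of 12 (8 lower with library size only). Endoplasmic reticulum chaperones were lower in 14 of 19 (16 with library size only) and genes of the unfolded protein response in 7 of 14. Heat shock factors and their regulators were lower in 3 of 4, and other heat-inducible genes in 14 of 17 (15 with library size only). Genes that vary together between mice are not separate observations in such counts. Hsf1, the main heat shock factor, had a log2 fold change of -0.10 ± 0.06. The medians of all these lists lay between -0.13 and 0.09.

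**Figure D3:**
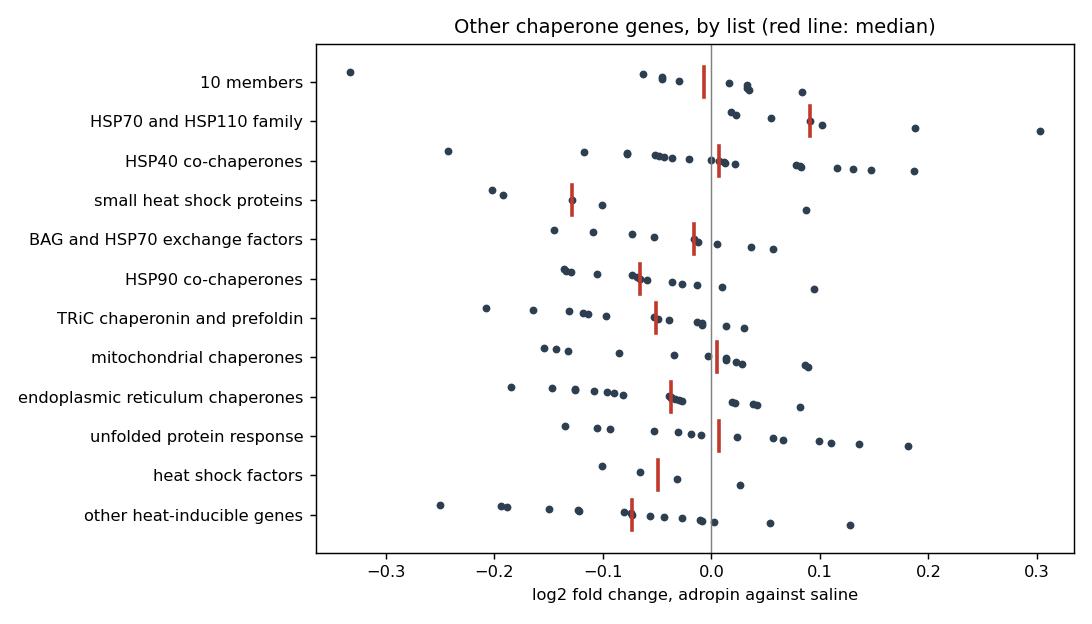
Log2 fold change of the 10 genes and of each gene of the 11 further chaperone lists, adropin against saline (edgeR, 8 mice per group). Each point is 1 gene and the red line is the median of its list, and single genes reach from -0.33 for Hspb1 to 0.30 for Hspa1l.

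The second question was how these genes varied together from mouse to mouse. Pearson's r was calculated for all 45 pairs over the 16 mice on log2 TMM-normalized CPM after the mean of each treatment group was subtracted, with permutation within groups and Benjamini-Hochberg adjustment over the 45. Of these, 30 pairs were positive and 15 negative, with a median r of 0.30 against 0.00 over all pairs of genes tested. Within the adropin group this median was 0.41, within the saline group 0.22, and over all 16 mice it was 0.16 when the means of the first label numbers were subtracted as well (replicate block). An r above 0.5 was found for 14 pairs, 31.1% against 14.1% of all pairs of genes. After adjustment 3 pairs passed, the lowest at an r of 0.65. An r at least that high was found for 6 of the 45 pairs, 13.3% against 6.87% of all pairs of genes. At the r of the 2 closest pairs the shares were lower, 4.44% against 2.07%, and an r as high as that of the closest pair was held by 1.82% of all pairs, where 1 pair of 45 is 2.22%. In 32 of the 45 pairs r had the same sign in both treatment groups, 71.1% against 66.7% of all pairs of genes.

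The closest pair was the HSP110 gene Hsph1 and the HSP40 gene Dnajb1, whose proteins act with HSP70 in pulling apart aggregates. Their r was 0.81 (permutation p = 0.00047, adjusted p = 0.0106) and Spearman's rho was 0.79 (permutation p = 0.00069, adjusted p = 0.0173). The relation was present in adropin-treated mice (r = 0.84, exact permutation p = 0.0129) and in saline-treated mice (r = 0.78, exact permutation p = 0.0193), and r was 0.87 when mice 7_4 and 8_3, the farthest from the median of Hsph1, were left out. Both genes were highest in mice 1_3 and 2_4 among the adropin-treated and lowest there in 4_3 and 7_4 for Hsph1 and in 4_3 and 3_3 for Dnajb1. Each also varied with the first principal component of all genes (r = -0.62 for Hsph1 and -0.68 for Dnajb1). The r of the pair was 0.68 once the component was regressed out.

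The second pair was Hspa5 and Hspa8, the HSP70 proteins of the endoplasmic reticulum and of the cytosol. Their r was 0.80 (permutation p = 0.00021, adjusted p = 0.00945) with a rho of 0.79 (permutation p = 0.00077, adjusted p = 0.0173), at 0.81 in adropin-treated mice (exact permutation p = 0.011) and 0.80 in saline-treated mice (exact permutation p = 0.012), and 0.85 when mice 5_4 and 6_1, farthest from the median of Hspa5, were left out. The third, Hspa1b with Hspa5, had an r of 0.65 (permutation p = 0.00326, adjusted p = 0.0489) and a rho of 0.60 (permutation p = 0.0172, adjusted p = 0.129), and r fell to 0.48 without mice 1_3 and 7_4.

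Mice 1_3 and 7_4 also carried the relation of Hspa1b to Hspa8. Hspa1b and Hspa8 had an r of 0.66 (permutation p = 0.0104, adjusted p = 0.0585) with a rho of only 0.30 (permutation p = 0.272, adjusted p = 0.490), and r without mice 1_3 and 7_4 was 0.20. Among adropin-treated mice 1_3 was the highest for 7 of the 10 genes and 7_4 the lowest for 5, and 1_3 also had the largest library, of 70314050 counts. Hspa1a and Hspa1b, for all their shared sequence, had an r of 0.37 (permutation p = 0.158, adjusted p = 0.297) and a rho of 0.24 (permutation p = 0.373, adjusted p = 0.559), with 0.67 in adropin-treated mice (exact permutation p = 0.0808, n = 8) and -0.09 in saline-treated mice (exact permutation p = 0.843, n = 8). Whether these within-group values differ was not tested. Without mice 1_3 and 5_4 the r of this pair was 0.16.

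**Figure D4:**
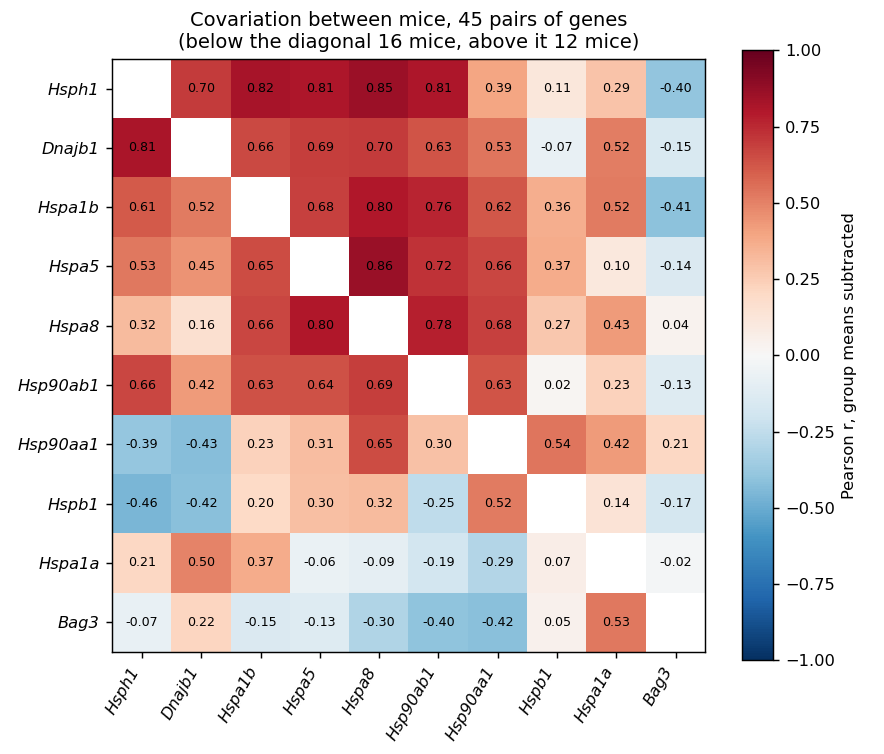
Pearson's r of each pair of genes over mice after group means were subtracted. Values below the diagonal are over all 16 mice, and those above it over the 12 mice with the lowest scores on the first principal component. Over 16 mice r ran from -0.46 for Hsph1 with Hspb1 to 0.81 for Hsph1 with Dnajb1, and the block from Hsph1 to Hsp90ab1 is redder above the diagonal than below it.

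Hsp90aa1 varied differently from its constitutive counterpart. The ratio of Hsp90aa1 to Hsp90ab1 counts lay between 0.446 and 0.577 in 12 mice and between 0.704 and 0.794 in the other 4, with no mouse between. These 4 were adropin-treated 3_3 (0.704) and 4_3 (0.757) and saline-treated 8_3 (0.739) and 5_4 (0.794). The same 4 mice had the highest scores on the first principal component of all genes, from 14.2 to 43.6 against -23.8 to 2.07 in the others. Many genes followed this component, with a median absolute r of 0.543 over all genes tested and an absolute r above 0.9 for 8.88% of them. After adjustment over 10 relations Hsp90aa1 (r = 0.90, adjusted permutation p = 0.0006) and Dnajb1 (r = -0.68, adjusted permutation p = 0.0242) passed. So did Hsph1 (r = -0.62, adjusted permutation p = 0.0359) and Hspb1 (r = 0.62, adjusted permutation p = 0.0359), and no other member. Without mice 4_3 and 5_4 these r were 0.81, -0.50, -0.52 and 0.51. These relations were added after the data were seen. Between treatments the log2 ratio differed by -0.03 (exact 2-sided permutation, p = 0.805), and by -0.14 within the first label numbers that both groups share (exact permutation, p = 0.556). In the 4 mice Hsp90aa1 itself was at 1055 to 1305 CPM against 682 to 922 CPM in the 12, whereas Hsp90ab1 overlapped, at 1428 to 1644 against 1362 to 1625 CPM. Dnajb1 was at 56.8 to 62.0 CPM in the 4 mice and 60.9 to 78.1 CPM in the 12, lower but overlapping. The mice were set apart here after their values were seen, and no test was made between them.

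**Figure D5:**
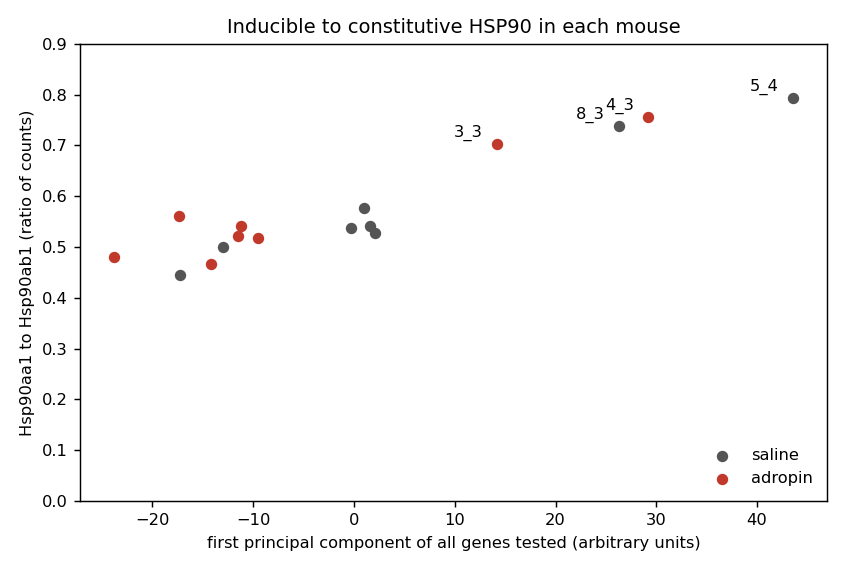
Ratio of Hsp90aa1 to Hsp90ab1 counts in each mouse against the score of the first principal component of all genes tested (arbitrary units), grey for saline and red for adropin. Mice 3_3, 4_3, 5_4 and 8_3, labelled, have ratios from 0.704 to 0.794, and the 12 others lie at or below 0.577.

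Because 4 mice stood apart in the ratio of Hsp90aa1 to Hsp90ab1 and scored highest on the component, r was also read within the other 12. This was a description with no test, since these mice were chosen after their values were seen. Within them the median r over the 45 pairs was 0.52, against 0.01 over all pairs of genes tested, and 23 pairs had an r above 0.5 (51.1% against 10.3% of all pairs). With the 2 mice farthest from the median of the first gene of each pair left out, the median was 0.35 and 14 pairs had an r above 0.5. No share over all pairs of genes was taken for this setting, so the count cannot be set against one. Hsp90aa1 had an r of 0.68 with Hspa8 and 0.63 with Hsp90ab1 in the 12. Hspa8 with Hsph1 had an r of 0.85 in the 12 mice, 0.60 in them without the 2 farthest and 0.32 in all 16. Hsph1 with Dnajb1 went the other way, with 0.70 in the 12 against 0.81 in all 16, and 0.68 over the 16 once the first component was regressed out. Hspa5 with Hspa8 had 0.86 in the 12 mice and 0.84 with the component regressed out.

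The genes most like each of 3 members were taken from all genes tested by Pearson's r over the 16 mice, with group means subtracted. Hspa8 was closest to Stip1 (r = 0.91), which encodes HOP, the adaptor that passes clients from HSP70 to HSP90. Stip1 was followed by Dcps, Ube2a, Rpn1 and Eipr1, at r from 0.86 to 0.91. Stip1 was at 172 CPM in mouse 7_4, its lowest, and at 222 CPM in mouse 1_3, its highest, and the same mice were lowest and second highest for Hspa8. Within the 12 mice the r of Hspa8 and Stip1 was 0.97.

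Hspa5 was closest to Pdia4 (r = 0.89), Pdia6 (r = 0.87) and Pdia3 (r = 0.85), all disulfide isomerases of the endoplasmic reticulum, then to Pphln1 and Rngtt, and these values were 0.91, 0.97, 0.91, 0.84 and 0.88 within the 12 mice. Hspa1b was closest to Abhd6 (r = 0.84), Gpbp1, Zfp879, Rpn1 and Dlat (r = 0.81). Of the 5 genes named for Hspa1b and for Hspa8, 1 was shared, Rpn1, a subunit of the enzyme that attaches sugars to proteins entering the endoplasmic reticulum. All of these are rankings over the same 16 libraries among 14939 genes, given without a test.

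Read by list, many of the endoplasmic reticulum chaperones followed Hspa5, Hspa8 and Hspa1b. Of the 19 in the list, 10 had an r above 0.5 with Hspa5 (median r 0.57), against 2.91% of all genes. With Hspa8, which acts in the cytosol, 12 of the 19 did (median r 0.57), against 9.76% of all genes, and with Hspa1b 8 of the 19 (median r 0.43), against 3.60%. With Hsp90aa1 it was also 8 of the 19 (median r 0.44), but against 23.2% of all genes, and with Hsp90ab1 6 (median r 0.36), against 10.6%. With Hspa1a none of the 19 did (median r -0.04), against 9.73% of all genes. Of the TRiC and prefoldin genes 7 of 14 had an r above 0.5 with Hspa8 (median r 0.51) against the same 9.76% of all genes. With Hsp90aa1 9 of these 14 did (median r 0.75) and with Hsp90ab1 7 (median r 0.41). Genes of the unfolded protein response had a median r of 0.07 with Hspa5, and 2 of 14 were above 0.5. Of the HSP90 co-chaperones 6 of 13 had an r above 0.5 with Hspa8 (median r 0.16), and of the 21 HSP40 genes 4 did (median r 0.01). The other HSP70 and HSP110 genes had a median r of -0.01 with Hspa8 and none above 0.5.

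The 5 genes nearest to each of 3 further members, chosen after their values were seen, lay outside the chaperone lists except for 1 gene. Hspb1 was closest to Igf2, a growth factor made in the meninges and choroid plexus of the adult brain (r = 0.90 over 16 mice and 0.76 over 12), and Igf2 was highest in mouse 8_3, at 243 CPM, against at most 142 CPM in the other 15. In the list of other small heat shock proteins 4 of 5 genes had an r above 0.5 with Hspb1 (median r 0.59), against 15.5% of all genes. None of the 7 other HSP70 and HSP110 genes did (median r -0.45). Hsph1 had among its nearest 5 genes Hyou1 (r = 0.93), an HSP110-like chaperone of the endoplasmic reticulum. Bag3 was closest to Mtus1 (r = 0.94 over 16 mice and 0.92 over 12).

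Of 40 relations of the 10 genes to the total count, to Gm42418, to the choroid plexus gene Ttr and to the activity-induced gene Fos, none passed after adjustment, the smallest adjusted permutation p being 0.157. The 3 at this value were Hsp90aa1 with Gm42418, a transcript that lies over ribosomal RNA sequence and took from 0.840% to 4.98% of the counts (r = -0.66, permutation p = 0.00657; rho -0.66, permutation p = 0.00905), Hsph1 with Ttr (r = -0.61, permutation p = 0.00797; rho -0.42, permutation p = 0.111) and Hspa1b with the total count (r = 0.69, permutation p = 0.0118; rho 0.48, permutation p = 0.0876). When the 2 mice most distant from the median of the other measure were left out, these r became -0.53, -0.28 and 0.43.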

How the data were processed

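Brain RNA of 16 mice, 8 per group, was sequenced. The authors aligned read pairs of 150 bases to the Ensembl release 76 assembly with STAR, counted uniquely aligned, unambiguous reads with featureCounts, and deposited these raw counts and CPM, made by dividing the counts by library totals. Per gene, 276 repeated entries of 40757 were dropped. A gene was kept when 7 or more mice exceeded 1 CPM, with 355 ribosomal RNA genes left out. Groups were compared in edgeR 4.0.16 (quasi-likelihood, TMM, prior count 2 for log2 values, R 4.3.3) with p-values adjusted over 14949 genes, which was checked on simulated data. Single values were compared by exact permutation over 12870 divisions of the mice, and correlations by 100000 permutations within groups. Positions and lengths are from GENCODE M21 (GRCm38) and promoters from RefSeq (GRCm38.p6). The 10 genes and the lists were chosen with earlier results of these data known. Named genes were the 10, the genes of each list with an unadjusted p below 0.05 (at most 4) and the 5 nearest to Hspa1b, Hspa8 and Hspa5. Others named were chosen after their values were seen.

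Library totals ran from 35026503 to 70314050, and of the 10 genes Hspb1 had the fewest counts, 189 to 609 per mouse. Counts differed by more than sampling noise between all 56 pairs of mice within a group, so no library repeated another of its group. Each mouse, as a separate animal, was taken as 1 replicate. Alternatives were limma-voom (3.58.1) with and without quality weights, limma-trend on log2 of the authors' CPM plus 1 or 0.1, DESeq2 1.42.0, a robust edgeR fit, library size only, DESeq2 size factors, all genes without a filter, a minimum of 10 counts in each mouse, either label number as a block, Gm42418 as a covariate and each mouse left out. The first principal component as a covariate and the set of 12 mice were added after the data were seen.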

Additional observations from a re-analysis of the deposited data

Results flagged for a closer look

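One value stood apart from its group by Dixon's test at the 95% level. Hspa8 in saline-treated mouse 5_4 was at 1580 CPM, the next mouse being at 1446 CPM, and the gap was 0.533 of the whole range of the 8 mice, above the critical value for that number. With 24 sets of 8 values tested, chance flags about 1 in 20.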

How the results depend on the processing

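None of the 10 genes passed an unadjusted p below 0.05 under any of the 14 alternatives to the fit, and the median log2 fold change of the 10 stayed between -0.045 and 0.0083. Fold changes near 0 changed sign in places. Hspa1a became -0.0064 with library size only, -0.0034 and -0.0032 with pseudocounts of 1 and 0.1 on the authors' CPM, -0.035 with the first number as a replicate block and -0.032 with the first principal component as a covariate. Hspa1b became -0.054 with the first-number block, Bag3 -0.0030 with the second-number block, -0.019 with Gm42418 as a covariate and -0.032 with the component, Hspa5 0.0067 with voom quality weights, Hsp90aa1 0.055 with Gm42418 and 0.090 with the component, Hsph1 -0.020 and Dnajb1 -0.027 with the component. Hsp90aa1 (-0.28, unadjusted p = 0.159), Hsp90ab1 (-0.096), Hspa8 (-0.10) and Bag3 (0.16) moved farther from 0 with the first-number block. Hspb1 kept its sign and ranged from -0.35 to -0.12, the smallest with voom quality weights. With the component, 8 of the 10 genes were lower. With each mouse left out the values ranged from -0.036 to 0.052 for Hspa1a, 0.014 to 0.14 for Hspa1b, -0.014 to 0.093 for Bag3, -0.12 to 0.031 for Hsp90aa1, -0.40 to -0.20 for Hspb1 and -0.092 to 0.037 for the log2 ratio of Hsp90aa1 to Hsp90ab1 and 0.051 to 0.12 for that of Hspa1a plus Hspa1b to Hspa8, and the number of genes passing from 0 to 1. The ranges of the other members were -0.082 to -0.0012 for Hspa5, -0.062 to -0.021 for Hspa8 and 0.00069 to 0.072 for Hsph1. They were -0.046 to -0.0082 for Hsp90ab1 and 0.0010 to 0.069 for Dnajb1. The cause of these changes was not tested. The median r over pairs was 0.41 within the adropin group, 0.22 within the saline group, 0.16 with the means of first label numbers subtracted as well (replicate block), 0.48 with the first component regressed out, 0.52 over the 12 mice and 0.20 to 0.35 with each mouse left out. Mice with the same first number did not deviate together (median r -0.09 over 10 pairs, against -0.05 over 110 others), so the numbers were not taken to pair the mice.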
